A study of Homo sapiens with 8 samples.

Results

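Activins, bone morphogenetic proteins (BMPs) and the ID genes that BMPs switch on were followed as 10 genes chosen by name, of 40693 gene symbols in the deposited tables. They were the activin subunit genes INHBA and INHBB, the activin antagonist FST, the ligands BMP2, BMP4 and BMP7, the pseudoreceptor gene BAMBI, and the targets ID1, ID2 and ID3. Each symbol occupied 1 row of the count tables. The list was drawn up with earlier results of these data known.

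RNA sequencing of total RNA covered 8 libraries of SW480 and SW620, established human colorectal adenocarcinoma lines that the labels give as Dukes' type B and type C. Untreated SW480 and untreated SW620 had 1 library each. SW620 with a hairpin RNA against the transcription factor gene FOXA2 (shFOXA2) and SW620 with a control hairpin (shNC) had 3 libraries each. Both kinds of hairpin cell were stable, puromycin-selected populations made with a lentiviral vector that also encodes mCherry, so the controls carried the vector and the selection too. The labels describe 2 FOXA2 hairpins and do not spell out which one these libraries carried; the sample titles contain a 1 after shFOXA2. The labels do not tell separate cultures from repeat libraries of 1 culture, so p-values measure only the spread between these libraries, which may be technical.

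Activins and BMPs are secreted dimers of the transforming growth factor beta superfamily. They bind type II receptors, which activate type I receptors and, through them, SMAD proteins that enter the nucleus. Activins act through SMAD2 and SMAD3 and BMPs through SMAD1, SMAD5 and SMAD9. In the intestine, BMP signalling favours differentiation and restrains stem cell expansion, and the ID proteins that it induces block E proteins and other basic helix-loop-helix factors.

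Total counts were 72323506 in SW480, 95935348 in SW620 and 7478411 to 13076566 in the hairpin libraries, in which 3 counts correspond to at most 0.401 CPM (counts relative to the library total). Replicate 1 stood apart from replicates 2 and 3 in both hairpin groups, with a chi-square per degree of freedom over genes of 3.9 to 4.53, against 1.66 and 1.74 between replicates 2 and 3. Mitochondrial genes took 11.7% and 11.1% of counts in the untreated lines and 4.46% to 4.82% in the hairpin libraries, and these 2 sets were not compared by a test. The 10 colon epithelium markers summed to 8158 to 8910 CPM in shNC and 8261 to 8695 CPM in shFOXA2, with CDX1 at 0 counts in all hairpin libraries, and KRT20 at 0 counts in SW480. Keratin genes make up most of that sum, and single markers moved: of 9 tested, 4 rose and 2 fell, among them CDX2 from 25.5 to 41.2 CPM (log2 0.69, adjusted p 5.15e-09, edgeR). Over all 16100 genes tested, 19.2% rose and 19.8% fell at an adjusted p under 0.05 (edgeR). The 7 listed fibroblast and endothelium markers summed to 11.5 to 13.4 CPM in shNC and 16.7 to 22.2 CPM in shFOXA2, mostly LUM and COL1A1, while COL1A2 and COL3A1 were at 0 in all 8 libraries. The 5 leukocyte markers summed to 18.2 to 23.6 CPM and 24.3 to 27.2 CPM, mostly CD68 and LYZ, with CD3E at 0 in the hairpin libraries. The part of these other-cell markers in the results below was not tested.

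INHBB came with a sequence question, because hairpins can lower transcripts that match only a short stretch of their target. The sequences below show the FOXA2 target of hairpin 1 as the labels give it and a site in the INHBB 3' UTR, with the 7 shared bases in capitals.
Hairpin 1 target: gaacggcatgaACACGTAcat
INHBB 3' UTR site: ctttaaaatgcACACGTAgccacgcacag
The INHBB stretch begins at base 226 of a 3' UTR of 1934 bases, at chr2:120350100-120350106 on the plus strand (GENCODE v29, GRCh38), and corresponds to bases 12 to 18 of the 21-base target. ACACGTA occurred in the 3' UTR of 342 of 12441 genes searched (2.75%). Among those 342 genes, 146 (42.7%) were lower and 52 higher in shFOXA2, with a median log2 fold change of -0.15. Over all 12441 genes 21.5% were lower, and the median was 0.01. Earlier work on these same libraries had already ranked this stretch, so these counts are not independent evidence. Genes holding the other stretches of the target were not counted in this way. Holders and other genes were not matched for 3' UTR length either. The target holds 15 stretches of 7 bases, and all were searched. None of the 10 genes held in its 3' UTR the stretches at bases 13 to 19, 14 to 20 or 15 to 21. Which stretch of the target a hairpin acts through, if any, was not tested. None of the 10 genes held the full target of hairpin 1: their longest shared runs were 6 to 8 bases. Runs shared with the other FOXA2 hairpin target (7 to 9 bases) and with the control hairpin target (7 to 10 bases) were no shorter. INHBB itself shared 8 bases with each of those targets, anywhere in its transcript, and 7 with hairpin 1. The 3' UTRs were searched for stretches of hairpin 1 only, so these runs do not compare the hairpins there.

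Other 7-base stretches of the hairpin 1 target lay in the 3' UTRs of BMP2 (TGAACAC), BMP7 (ATGAACA and TGAACAC) and ID1 (CGGCATG). These stretches occurred in 11.1%, 14.2% and, for CGGCATG, 2.16% of genes searched. A match describes letters in a transcript and does not show that a hairpin acted there.

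FOXA2, the targeted gene, was at 52.5, 49.0 and 51.9 CPM in shNC replicates 1 to 3 and at 30.3, 29.3 and 22.2 CPM in shFOXA2 replicates 1 to 3. The groups did not overlap, and the log2 fold change of FOXA2 was -0.91 (SE 0.09, adjusted p 6.88e-10, edgeR quasi-likelihood test). CPM in the hairpin comparison is scaled by TMM, which corrects for composition, and p-values are adjusted by Benjamini-Hochberg over 16100 genes with enough counts to test. At an adjusted p of 0.05, 39% of those genes were called, 19.2% higher and 19.8% lower in shFOXA2.

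Of the 10 genes, 8 passed the expression filter, and 4 of these were called. BMP4, BAMBI and ID2 rose in shFOXA2 and INHBB fell, while BMP2, BMP7, ID1 and ID3 did not pass the test. The share called, 4 of 8, stands beside the 39% of all genes, so the count alone does not set these genes apart. Their median log2 fold change was 0.13, against 0.01 over all genes tested. INHBA and FST had at most 12 counts in any hairpin library and were not tested. These are bulk libraries, in which fewer cells with a transcript and less of it per cell cannot be told apart.

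**Figure D1:**
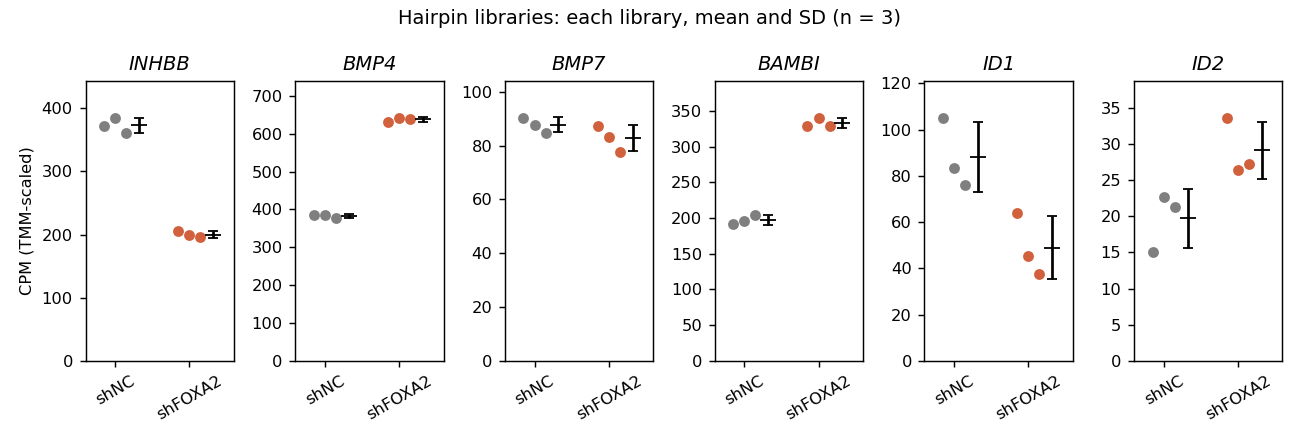
TMM-scaled CPM (vertical axis, from 0) of 6 genes in the hairpin libraries; points are libraries in replicate order 1 to 3, and the bar beside them is the mean with its SD (n = 3). INHBB lies lower, and BMP4, BAMBI and ID2 higher, in shFOXA2 than in shNC without overlap. ID1 also lies lower without overlap but is spread widely within both groups, and BMP7 overlaps. Of all genes tested, 48.7% did not overlap.

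Among the activin genes, INHBB (chr2:120346143-120351808, plus strand; gene locations are from GENCODE v29 on GRCh38) encodes the beta B subunit, which forms activin B as a homodimer. INHBB was at 372, 385 and 361 CPM in shNC and at 206, 199 and 196 CPM in shFOXA2, in replicate order. The groups lay far apart relative to their spread, with means of 372.8 ± 12.0 CPM (SD, n = 3) and 199.95 ± 5.10 CPM (SD, n = 3). INHBB fell 1.86-fold, with a log2 difference of -0.90 (SE 0.04, adjusted p 6.13e-21, edgeR) close in size to that of FOXA2 itself. Its call held under all 15 alternative settings, with log2 fold changes from -0.93 to -0.88. The part of the ACACGTA stretch in this fall was not tested.

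INHBA (chr7:41667168-41705834, minus strand), which encodes the beta A subunit of activin A, was near the detection floor. It had 7, 5 and 5 counts in shNC and 10, 6 and 12 counts in shFOXA2. As CPM these were 0.545, 0.385 and 0.407 CPM against 0.836, 0.815 and 1.20 CPM, so the groups did not overlap, as for 48.7% of the genes tested. In the 5 settings in which INHBA could be tested, its adjusted p ran from 0.0948 to 0.18. FST (chr5:53480409-53487134, plus strand), the gene of follistatin, which binds and neutralizes activins, had 0 or 1 count in each hairpin library. Follistatin transcripts were thus not detectable above 3 counts, a limit that covers counting error only.

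BMP4 (chr14:53949736-53958761, minus strand) carried most of the BMP ligand signal in the SW620 libraries. BMP4 was at 386, 386 and 378 CPM in shNC and at 631, 643 and 639 CPM in shFOXA2. All 3 libraries of each group lay within a narrow band, and the bands were 1.66-fold apart. The means were 383.5 ± 5.01 CPM (SD, n = 3) and 637.7 ± 5.72 CPM (SD, n = 3), a log2 rise of 0.73 (SE 0.04, adjusted p 7.72e-19, edgeR). BMP4 was called in 15 of 15 alternative settings, from 0.70 to 0.74.

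BMP7 (chr20:57168748-57266629, minus strand) encodes a ligand that can pair with BMP4. It was at 90.5, 87.8 and 84.9 CPM in shNC and at 87.2, 83.4 and 77.7 CPM in shFOXA2. The groups overlapped, with a log2 difference of -0.08 (SE 0.05, adjusted p 0.221, edgeR). BMP2 (chr20:6767664-6780280, plus strand), the closest relative of BMP4, was scarce. Its level was 0.779, 1.00 and 1.55 CPM in shNC and 1.42, 1.22 and 1.502 CPM in shFOXA2, from 9 to 19 counts. The log2 difference of BMP2 was 0.34 (SE 0.36, adjusted p 0.494, edgeR), and its groups overlapped. Neither gene was called in any of the 15 alternative settings.

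BAMBI (chr10:28677342-28682939, plus strand) encodes a membrane protein that resembles a type I receptor without a kinase and dampens BMP, activin and TGF-beta signals. BAMBI was at 192, 196 and 204 CPM in shNC and at 329, 341 and 328 CPM in shFOXA2. Its groups did not overlap either. From 197.2 ± 6.33 CPM (SD, n = 3) to 332.6 ± 7.02 CPM (SD, n = 3), BAMBI rose 1.69-fold, by 0.75 in log2 units (SE 0.04, adjusted p 1.82e-18, edgeR). All 15 alternative settings called it, from 0.72 to 0.78.

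INHBB, BMP4 and BAMBI, whose calls held in every setting run, also held the letters GGCGCC in their promoter windows. This GC-rich palindrome is a form of the element to which BMP SMADs bind, and the stretches below are cut from RefSeq windows of 250 bases before to 50 after the start (GRCh38.p14), with GGCGCC in capitals.
INHBB, chr2:120345886-120345990, plus strand: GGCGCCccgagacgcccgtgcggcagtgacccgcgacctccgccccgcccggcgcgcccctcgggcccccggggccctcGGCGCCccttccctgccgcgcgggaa
BMP4, chr14:53955257-53955300, minus strand: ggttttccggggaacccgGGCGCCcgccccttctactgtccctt
BAMBI, chr10:28677292-28677365, plus strand: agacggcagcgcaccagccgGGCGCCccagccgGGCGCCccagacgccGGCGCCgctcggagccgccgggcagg
Windows were found for 8 of the 10 genes, 10 windows in all, since BMP4 has 3. BMP2 and BMP7, neither of them called, had no window and were not searched. GGCGCC occurred in those of INHBB (3 matches), BMP4 (2 matches, in 1 of its windows) and BAMBI (3 matches), and in 19.2% of all 35116 windows. The windows of ID1, ID2, ID3, INHBA and FST held none, and INHBA and FST were not tested in the hairpin comparison. The 3 windows held 88.7%, 66.0% and 80.0% G and C, against a median of 58.7% over all windows, and GGCGCC consists of those bases only. GTCTGG or its reverse complement CCAGAC, a SMAD element, occurred in the BAMBI window alone among the 10 and in 17.0% of all windows. The forkhead letters TGTTTAC or GTAAACA occurred in none of the 10 and in 3.42% of all windows. Both strands were searched, and the BAMBI match CCAGAC does not overlap a GGCGCC match. INHBB fell while BMP4 and BAMBI rose, so the 3 genes with GGCGCC did not move in 1 direction, and a match of letters shows no binding.

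ID1 (chr20:31605283-31606515, plus strand), a classical direct target of BMP SMADs, was at 105, 83.6 and 76.1 CPM in shNC and at 64.0, 45.4 and 37.6 CPM in shFOXA2. Each shFOXA2 library lay below each shNC library, and replicate 1 was the highest of its group on both sides. The means were 88.3 ± 15.1 CPM (SD, n = 3) and 48.97 ± 13.6 CPM (SD, n = 3). The log2 difference of -0.84 (SE 0.26) did not pass the test (adjusted p 0.0718, edgeR). ID1 was called in 5 of 15 alternative settings. Its adjusted p was 0.00628 by DESeq2, 5.09e-04 by limma-voom and 1.79e-12 with the replicate block in edgeR. The block treats same-numbered libraries as pairs, which their deviations over all genes tested did not show (correlations of -0.047 to -0.004). Without shFOXA2 replicate 1 the edgeR log2 difference was -1.10 (adjusted p 0.0351), and without replicate 1 of both groups it was -0.96 (adjusted p 7.06e-31). The latter setting was added after the data were seen. It keeps only replicates 2 and 3, which differ least from each other (chi-square per degree of freedom 1.66 and 1.74), so its p-value reflects that small spread.

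ID2 (chr2:8678845-8684453, plus strand) is also a BMP target and responds to other signals, among them Wnt and MYC. It was at 15.1, 22.6 and 21.3 CPM in shNC and at 33.6, 26.4 and 27.2 CPM in shFOXA2. The groups did not overlap, and replicate 1 was the lowest shNC library and the highest shFOXA2 library. ID2 rose from 19.7 ± 4.02 CPM (SD, n = 3) to 29.1 ± 3.96 CPM (SD, n = 3), by 0.57 in log2 units (SE 0.17, adjusted p 0.0267, edgeR). That call did not survive leaving out replicate 3 of shFOXA2 (adjusted p 0.0664) or of shNC (0.0579), or adding the replicate block (0.156). Without replicate 1 of both groups, the setting added after the data were seen, the edgeR rise was only 0.29 (adjusted p 0.0259). ID2 shares 38 exon bases with the antisense gene ID2-AS1 in GENCODE v29. The library kit was directional, but no source used here says that the counting used strand, so reads of the pair may be mixed.

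ID3 (chr1:23557918-23559794, minus strand) was barely expressed, at 1.09, 1.00 and 1.30 CPM in shNC and 0.753, 1.22 and 0.601 CPM in shFOXA2, from 6 to 16 counts. The groups overlapped, and the log2 difference of -0.45 (SE 0.41) did not pass the test (adjusted p 0.413, edgeR). ID3 was called in 0 of 15 alternative settings.

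The untreated lines show where these genes start from. With 1 library each there is no replicate check, and the 95% intervals of the ratios are exact and cover counting error only. Of the 8 genes that reached 20 counts in either line, 4 differed at least 4-fold (with 1 CPM added to each value), against 5.14% of 21343 genes. INHBB, BMP4 and ID1 were higher in SW620 and ID2 was higher in SW480. Scarce genes, BMP2 among them, cannot reach 4-fold once 1 CPM is added, and this lowers the share over all genes. With 0.1 CPM added instead, 5 of the 8 genes and 2539 of the 21343 differed at least 4-fold. The 10 genes were chosen with earlier results of these data known, so either difference in share is a description.

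INHBB had 4581 counts in SW480 and 30865 in SW620, 4.91-fold higher in SW620 (95% interval 4.76 to 5.06). BMP4 had 3274 and 27062 counts, 6.02-fold higher in SW620 (5.81 to 6.24). BMP7 went the other way, with 10769 and 8606 counts, 1.72-fold higher in SW480 (1.67 to 1.77). The main BMP ligand by transcript level thus differed between the lines. BMP2 had 4 and 80 counts, a ratio of 14.6 in favour of SW620 with a wide interval (5.47 to 54.8), and fell short of 4-fold once 1 CPM was added.

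ID1 and ID2 showed opposite patterns in the lines. ID1 had 138 counts in SW480 and 5163 in SW620, 27.3-fold higher in SW620 (23.01 to 32.5), the widest ratio among those 8 genes. ID2 had 15716 and 1715 counts, 12.6-fold higher in SW480 (12.0 to 13.2). ID3 was low in both, with 65 and 132 counts, a ratio of 1.48 (1.09 to 2.02). BAMBI was nearly level, with 12825 and 18552 counts, a ratio of 1.05 (1.03 to 1.08) after scaling for depth. INHBA had 10 and 13 counts, and FST had 4 counts in SW480 and 0 in SW620, where 3 counts would be 0.0313 CPM. FOXA2 itself had 319 and 7882 counts in SW480 and SW620.

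Set beside the hairpin comparison, the genes did not follow 1 pattern. INHBB was higher in SW620 than in SW480 and fell in shFOXA2. ID2 was lower in SW620 and rose in shFOXA2. BMP4, in contrast, was higher in SW620 and rose further in shFOXA2, and BAMBI was level between the lines and rose. ID1, higher in SW620, had lower values in every shFOXA2 library without passing the test.

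**Figure D2:**
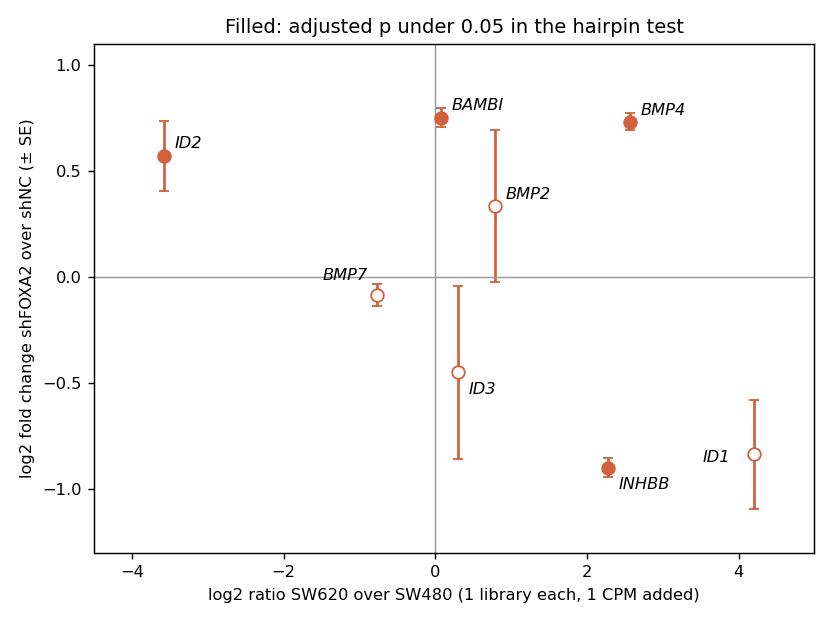
Log2 ratio of SW620 over SW480 (horizontal, 1 library each, 1 CPM added) against log2 fold change of shFOXA2 over shNC (vertical, bars are SE, n = 3 a group) for the 8 genes tested; filled points have an adjusted p under 0.05. ID2 lies at upper left, INHBB and ID1 at lower right, and BMP4 at upper right.

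Levels of different genes were compared on the deposited RPKM scale, which divides reads by the listed gene length and by library depth. INHBB was at 19.8 RPKM in SW480 and 100.4 RPKM in SW620, at 116.3 ± 3.82 RPKM in shNC and at 61.8 ± 1.503 RPKM in shFOXA2 (SD, n = 3 each). None of these groups overlapped. SW480 and SW620 are 1 library each, however, and differ from the hairpin libraries in depth and mitochondrial share. BMP4 ran from 14.7 RPKM in SW480 and 91.5 RPKM in SW620 to 124.4 ± 1.38 RPKM in shNC and 205.0 ± 1.87 RPKM in shFOXA2 (SD, n = 3 each), also without overlap. The highest level of any of the 10 genes in any library was therefore that of BMP4 in shFOXA2.

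BAMBI was at 76.6 RPKM in SW480 and 83.6 RPKM in SW620, the latter within the range of shNC (85.2 ± 3.99 RPKM), while shFOXA2 lay above (142.4 ± 2.21 RPKM, SD, n = 3 each). BMP7 was highest in SW480 at 27.5 RPKM and lower elsewhere, with 16.6 RPKM in SW620, 16.2 ± 0.28 RPKM in shNC and 15.1 ± 0.82 RPKM in shFOXA2 (SD, n = 3 each). ID1 was at 1.55 RPKM in SW480, 43.6 RPKM in SW620, 71.5 ± 11.1 RPKM in shNC and 39.3 ± 10.9 RPKM in shFOXA2 (SD, n = 3 each), and SW620 and shFOXA2 overlapped. ID2 was at 98.5 RPKM in SW480 and 8.11 RPKM in SW620, the latter within the range of shNC (8.94 ± 1.93 RPKM), while shFOXA2 was higher (13.1 ± 1.79 RPKM, SD, n = 3 each). ID3, BMP2, INHBA and FST stayed under 1 RPKM in every library.

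**Figure D3:**
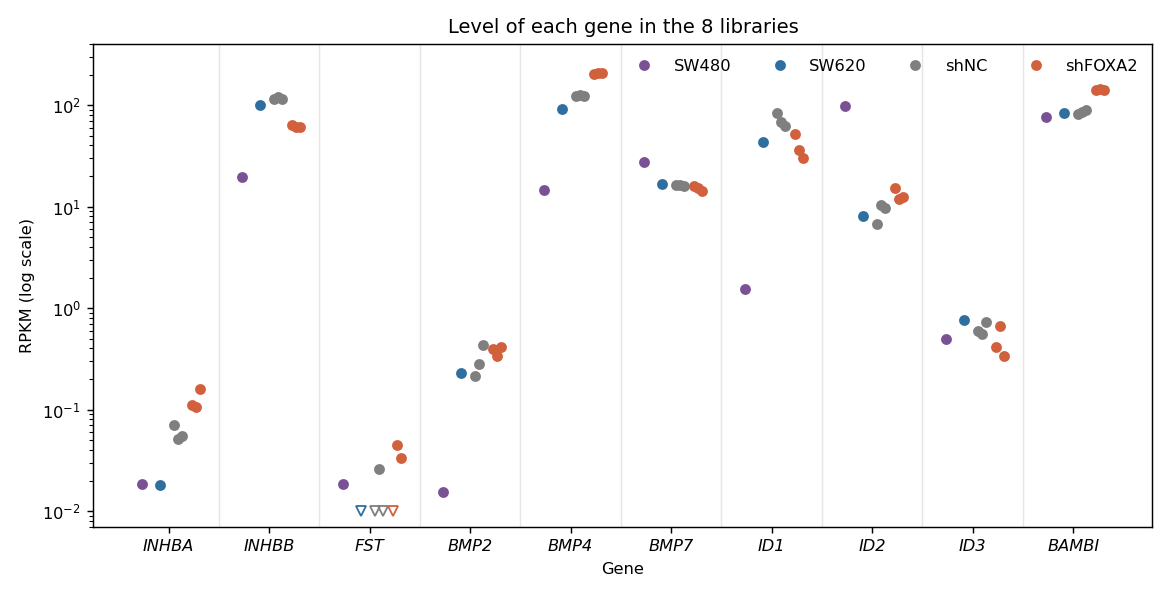
Deposited RPKM (log scale) of each of the 10 genes in each of the 8 libraries, 1 point per library; open triangles at the lower edge are libraries with 0 counts. INHBB, BMP4, ID1 and ID2 span the widest ranges among the expressed genes, with SW480 lowest for the first 3 and highest for ID2.

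The make-up of each small family shifted with these levels. ID2 made up 98.0% of the summed ID1, ID2 and ID3 RPKM in SW480, and ID1 only 1.54%. In SW620 the shares were 83.1% for ID1 and 15.4% for ID2. ID1 took 85.6% to 92.0% in the shNC libraries and 70.6% to 76.8% in the shFOXA2 libraries, and the ranges did not overlap. The ID2 to ID1 ratio was 0.129 ± 0.043 in shNC and 0.341 ± 0.058 in shFOXA2 (SD, n = 3 each), against 63.7 in SW480. The shFOXA2 shares thus remained on the SW620 side of the contrast.

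Of the summed BMP2, BMP4 and BMP7 RPKM, BMP7 made up 65.2% in SW480 and 15.3% in SW620. BMP4 took 34.8% and 84.5% in those lines, 88.1% to 88.4% in shNC and 92.6% to 93.4% in shFOXA2. The ratio of BMP4 to BMP7 was 7.69 ± 0.16 in shNC and 13.6 ± 0.86 in shFOXA2 (SD, n = 3 each). BMP4 and INHBB, near parity in shNC at a ratio of 1.07 ± 0.024, stood at 3.32 ± 0.11 in shFOXA2 (SD, n = 3 each). For each of the 3 ratios, that of ID2 to ID1 included, the hairpin groups did not overlap, and the two-sided exact permutation p was 0.1, the smallest that 3 against 3 libraries allow. The ratios restate the gene levels above.

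**Figure D4:**
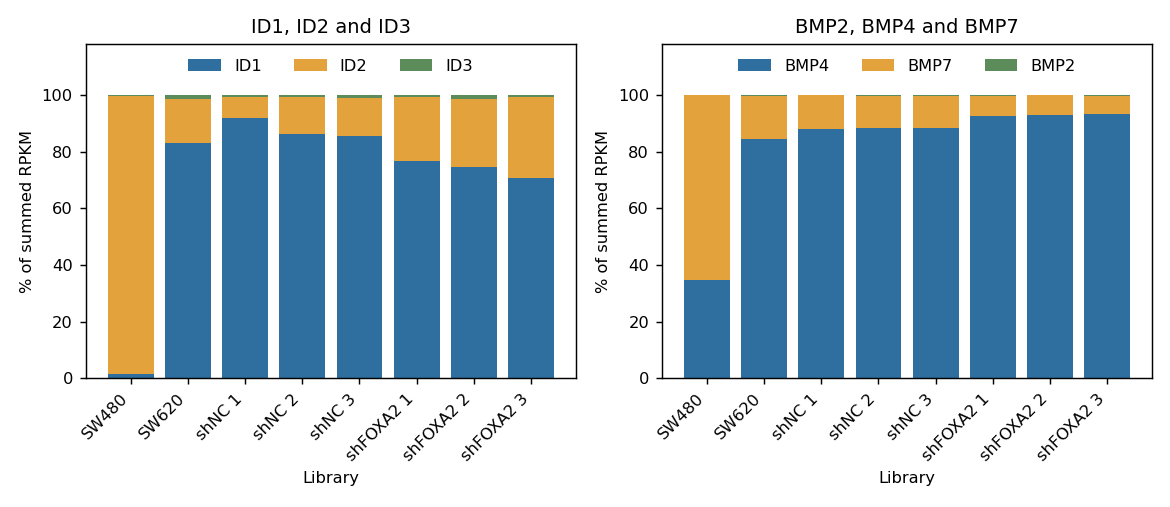
Share of summed RPKM (percent, from 0) held by ID1, ID2 and ID3 (left) and by BMP2, BMP4 and BMP7 (right) in each of the 8 libraries. SW480 differs from the other 7, with ID2 at 98.0% and BMP7 at 65.2%, and the shFOXA2 libraries hold more ID2 and more BMP4 than the shNC libraries.

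Around these genes, 67 other genes of the BMP and activin pathway were listed by role, and 43 had enough counts to test. In shFOXA2, 11 rose, 7 fell and 25 did not pass the test, with a median log2 fold change of 0.07. The share called, 18 of 43, is again near that of all genes tested, 39% (19.2% higher and 19.8% lower). The counts by role below stand beside those same shares, and each rests on few genes.

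Among 8 other ligands tested, 1 rose and 2 fell. INHBE, the activin beta E subunit gene, fell from 15.1 to 9.01 CPM (log2 -0.74, adjusted p 2.69e-06, edgeR), the same direction as INHBB. BMP5 rose from 23.7 to 30.9 CPM (0.38, 2.93e-04). BMP8B fell by 0.36 on the log2 scale (adjusted p 0.0356, edgeR), a call lost in 6 of 15 settings. Of 4 secreted antagonists tested, 2 rose: FSTL3, a follistatin relative that binds activins, from 42.8 to 61.0 CPM (0.50, 9.67e-07), and NBL1, a DAN family BMP antagonist, from 22.6 to 28.6 CPM (0.34, 0.00211). FSTL3 was thus far more abundant than FST. NOG, the gene of the BMP antagonist noggin, was not tested: it had 56 counts in shFOXA2 replicate 1 and 2 to 6 in the other hairpin libraries.

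Receptors moved in both directions. ACVR1B, a type I receptor for activins, fell from 39.5 to 26.6 CPM (log2 -0.58, adjusted p 2.13e-06, edgeR). ACVR1C, another type I receptor, rose 2.38-fold from 1.13 to 2.72 CPM (adjusted p 8.67e-04, edgeR). ACVR1, a type I receptor for BMPs, rose by 0.37 (adjusted p 0.0428, edgeR), a call lost in 9 of 15 settings. BMPR2, the BMP type II receptor, rose from 30.5 to 43.5 CPM (0.51, 2.95e-07), the only 1 of 3 type II receptors called. Of 6 co-receptors, RGMA fell from 3.38 to 1.44 CPM (-1.21, 2.38e-04) and TDGF1, which serves NODAL, fell from 6.77 to 3.41 CPM (-0.97, 7.06e-05). TGFBR3 was at 58.3 CPM in shFOXA2 replicate 1 and at 13.9 to 19.1 CPM in the other hairpin libraries, and was not called (log2 0.82, adjusted p 0.404, edgeR). Without that library its log2 difference was -0.13 (adjusted p 0.466).

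None of the 5 receptor SMAD and SMAD4 genes tested was called by edgeR with all libraries and the default filter. SMAD5 alone had an unadjusted p under 0.05 (adjusted p 0.0513). It was called by limma-voom and by edgeR with a filter of 1 CPM in 3 libraries, without shFOXA2 replicate 2 and without replicate 1 of both groups, while DESeq2 called none of the 5. Of 7 inhibitory SMAD, SMURF and corepressor genes, 4 rose and 1 fell, beside 19.2% and 19.8% of all genes tested. SMURF2, a ubiquitin ligase for SMADs and receptors, rose from 27.6 to 56.4 CPM (log2 1.03, adjusted p 1.72e-15, edgeR). SMAD7, the inhibitory SMAD, rose from 4.10 to 8.93 CPM (1.13, 6.36e-07). The corepressors SKI and SKIL moved apart, SKI falling from 57.4 to 38.6 CPM (-0.57, 1.80e-09) and SKIL rising from 89.9 to 119 CPM (0.41, 1.84e-09). SKI was the only 1 of the 43 genes whose 3' UTR held ACACGTA, beside 2.75% of all genes searched. The part of that stretch in the fall of SKI was not tested. TGIF1 also rose (0.18, adjusted p 0.00486, edgeR), and its call was lost without shFOXA2 replicate 1 (0.052); TGIF1, NOG, SMAD5, SMAD4 and the hairpin values of SMAD7 and TGFBR3 were chosen for naming after values were seen.

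TCF3, which encodes the E proteins E12 and E47 that ID proteins bind, fell from 203 to 98.8 CPM (log2 -1.04, adjusted p 1.74e-21, edgeR). Of 4 further BMP targets tested, MSX2 rose from 37.8 to 55.2 CPM (0.54, 1.51e-08) and the other 3 were not called.

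**Figure D5:**
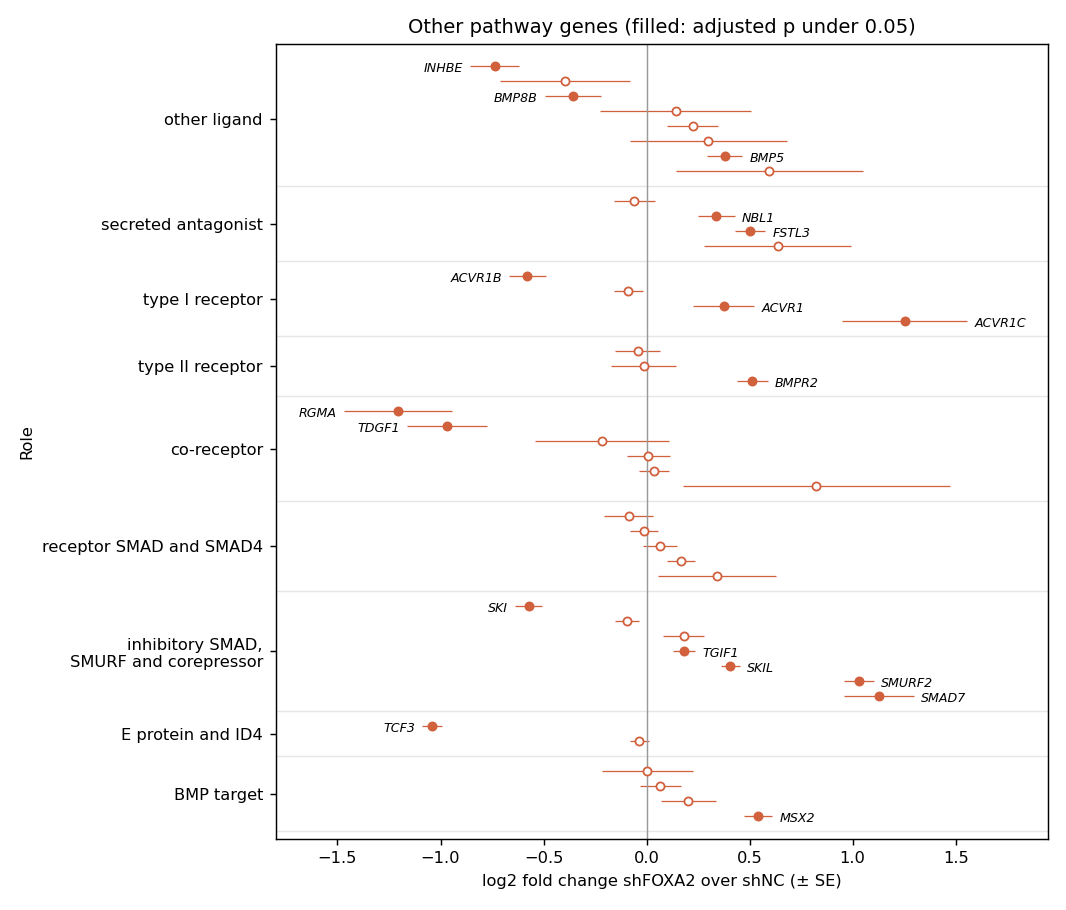
Log2 fold change of shFOXA2 over shNC (horizontal, bars are SE, n = 3 a group) for the 43 other pathway genes tested, grouped by role (vertical); filled and named points have an adjusted p under 0.05. SMURF2, SMAD7 and ACVR1C lie above 1, and TCF3 and RGMA below -1.

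Between the untreated lines, 7 of 51 other pathway genes with at least 20 counts differed at least 4-fold (with 1 CPM added), beside 5.14% of all genes. Scarce genes cannot reach 4-fold on that scale and lower both shares. BMP5 (11 and 2650 counts in SW480 and SW620), SMAD6 (109 and 2949 counts) and TGFBR3 were higher in SW620, by 175-fold (97.9 to 352), 19.7-fold and 6.13-fold. MSX1 (15221 and 1144 counts), SMAD7, TWSG1 and SMURF2 were higher in SW480, by 18.3-fold, 10.6-fold, 5.39-fold and 4.76-fold. The inhibitory SMADs thus differed in opposite directions, SMAD6 with ID1 on the SW620 side and SMAD7 with ID2 on the SW480 side. SMAD4, the shared partner of all receptor SMADs, had only 77 and 174 counts in the lines.

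Genes with the most similar profile over the 8 libraries were found by the root mean square (RMS) difference of log2(CPM + 1), centred on each gene's mean, among 13207 genes. MARCKSL1, DAGLA and HES6 were nearest to INHBB (RMS 0.103 to 0.143), and LINC00460, MUC13 and LGR6 to BMP4 (0.116 to 0.132). BAMBI was nearest to HDHD2, VCL and NEK7 (0.06 to 0.071). TFF3, NKX2-5 and CLEC11A were nearest to ID1, at a looser 0.252 to 0.331. BMP7 lay nearest to ANGEL1, TMEM38B and H2AFZ (0.052 to 0.058). BMP2 and ID3 are low-count genes here, and their nearest genes were AP006222.2, BRPF1 and SEMA7A (0.095 to 0.099) and TMEM134, RP11-20B24.4 and OGG1 (0.072 to 0.078). The 8 libraries differ in line and hairpin, and the untreated lines also differ from the hairpin libraries in depth and mitochondrial share. A similar profile can follow any of these differences, so these are descriptions without a test.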

How the data were processed

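Gene counts of 8 libraries were used, 1 table each. Each deposited table gives counts, a gene length and RPKM for 42713 entries. The authors' RPKM values equal the scaled counts, for 100% of genes over 20 counts to a relative 1e-04. HOMER and hg19 stand in the submitters' processing notes with no role; the aligner, counter and annotation: not given in the sources used here. For 256 repeated symbols the entry with the highest summed count was kept.

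The hairpin libraries, 3 against 3, were compared with edgeR 4.0.16 in R 4.3.3 (robust quasi-likelihood, two-sided, TMM, filterByExpr, Benjamini-Hochberg). SE is the log2 fold change over the square root of F. SW480 and SW620, with 1 library each, got no test but ratios of TMM-scaled CPM with exact conditional binomial intervals. Alternatives were other scalings and filters, DESeq2 1.42.0, limma-voom (limma 3.58.1), a replicate block, libraries left out, a stricter threshold of 0.01, the pseudocount, count minimum and fold, and, added after seeing the data, leaving out replicate 1 of both groups. The edgeR script was tested on simulated counts. Same-numbered replicates deviated with correlations of -0.047 to -0.004, so numbers were not taken as pairs.

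The genes and lists were chosen with earlier results of these data known. Pathway genes were named as up to 3 called genes per role by p and up to 3 per role at least 4-fold apart between the lines (exceptions are stated), and similar profiles as the 3 nearest genes (mean log2 CPM of at least 2) of each gene averaging at least 1 CPM; those of ID2 are not reported here. Sites were searched in GENCODE v29 transcripts (GRCh38) and RefSeq promoter windows (GRCh38.p14), with Python 3.11.15 (pandas 2.3.3, numpy 2.4.6, matplotlib 3.10.9, scipy 1.17.1).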

Additional observations from a re-analysis of the deposited data

How the results depend on the processing

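INHBB, BMP4 and BAMBI kept their call and direction under all 15 refits of the hairpin comparison. The number of the 10 genes called lower rose from 1 to 2, through ID1, under the DESeq2 Wald test, limma-voom, the replicate block, without shFOXA2 replicate 1 and without replicate 1 of both groups. With libraries left out, the genes called numbered 3 to 5 (2 to 3 higher, 1 to 2 lower), the other pathway genes called 16 to 18 (10 to 11 higher, 6 to 7 lower), and all genes called 5299 to 5872 (2502 to 2835 higher, 2797 to 3092 lower), against 6280 with all libraries. With the replicate block 6139 genes were called, 4 of the 10 (ID1 gained, ID2 lost) and 18 other pathway genes. With a pseudocount of 0.1 CPM, 2539 genes rather than 1098 differed at least 4-fold between the lines. No called result changed direction; uncalled ones did, among them TGFBR3, at 0.82 with all libraries and -0.13 without shFOXA2 replicate 1. Depth limits INHBA, FST, BMP2 and ID3, and the untreated lines have 1 library each.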
